A study of Mus musculus with 2 samples.

Results

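Txnip, Pik3ip1, Ddit4, Arrdc3 and Tob1 are 5 genes grouped here as quiescence genes, a name for genes linked to the resting state. They were followed in single cells of infarcted mouse hearts. They are 5 of the 55357 genes in the count matrices and were found by their symbols. They were chosen by their measured levels in these data, across the cell classes and between the libraries, so every level and ratio given below is a description and none was tested. The study compares mice that received anti-IgG injections with mice that received injections of anti-PD1, an antibody to the inhibitory receptor PD1 of T cells, with 1 library for each. Both groups were wild-type (WT) mice whose hearts were taken 7 days after myocardial infarction (MI), an injury by blocked blood supply, and both are labelled as T cells of the heart. The sources used here do not give the antibody dose, the age or sex of the mice, or how many animals a library holds. The design text speaks of sorted T cells, whereas the preparation protocol, which covers digestion of the tissue and the removal of red and dead cells, names no sort.

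Resting lymphocytes keep their uptake of nutrients low and their growth kinases restrained until their antigen receptor is engaged. Txnip and Arrdc3 encode alpha-arrestins, adaptors that draw membrane proteins into the cell, and Txnip also binds thioredoxin and lowers glucose uptake. Pik3ip1 encodes a membrane protein that restrains PI3 kinase, Ddit4 (also called REDD1) restrains the growth kinase mTORC1, and Tob1 belongs to the BTG/TOB family, which brings the CCR4-NOT deadenylase to mRNAs and slows proliferation. Nr4a1, with which they are compared, is a nuclear receptor gene switched on rapidly by signals of the antigen receptor.

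After removal of cells with fewer than 300 genes, fewer than 500 UMIs (unique molecular identifiers, the counted molecules) or more than 10% mitochondrial UMIs, 4309 anti-IgG and 5835 anti-PD1 cells remained. The T gate, which asks for at least 2 UMIs of Cd3d, Cd3e and Cd3g, held 3736 cells (86.7% of the kept cells) of the anti-IgG and 4913 cells (84.2%) of the anti-PD1 library. Their median depth was 4003 and 3784 UMIs per cell, 47 barcodes were found in both libraries, and the ratio of anti-PD1 over anti-IgG levels had a median log2 of -0.11 over the 10840 genes with at least 100 UMIs in these cells. B cell and macrophage markers, which the T gate limits, were close to 0 in it, with 11 and 12 UMIs of Cd79a and 5 and 16 of Csf1r in all anti-IgG and anti-PD1 cells. It does not limit fibroblast, endothelial and dendritic markers: Dcn had 533 and 13 UMIs, Col1a1 369 and 19, Cdh5 160 and 70, and Siglech 306 and 227, most in the anti-IgG library and in few cells. A UMI of 10 such markers was present in 84 anti-IgG (2.25%) and 79 anti-PD1 (1.61%) T-gated cells, and the T-gated ratios are given below with and without these cells. The B gate (markers that include Cd79a and Ms4a1) took in 56 anti-IgG against 133 anti-PD1 cells, and the myeloid gate (Csf1r, Lyz2, C1qa and related genes) 42 and 100. With 1 library for each antibody the differences have no replicate check. All intervals below are 95% intervals that cover counting error only, and they are too narrow where the UMIs of a gene lie together in few cells.

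The sequences before the start sites of Txnip and Tob1 are shown because these 2 genes differed between the libraries in opposite directions, and because Txnip carries there a paired element through which the glucose-sensing Mondo factors are known to act. Both are the 250 bases before the start site in RefSeq (GRCm38.p6), 5′ to 3′ on the strand of the gene, at chr3:96557707-96557956 on the plus strand for Txnip and at chr11:94211204-94211453 on the plus strand for Tob1. Capitals mark the matches, on either strand, to CCAAT, to the FOXO motif GTAAACA, to ACGTG (the core of the hypoxia response element, which also lies inside CACGTG), and to 2 copies of CACGAG that stand 5 bases apart on 1 strand.
Txnip: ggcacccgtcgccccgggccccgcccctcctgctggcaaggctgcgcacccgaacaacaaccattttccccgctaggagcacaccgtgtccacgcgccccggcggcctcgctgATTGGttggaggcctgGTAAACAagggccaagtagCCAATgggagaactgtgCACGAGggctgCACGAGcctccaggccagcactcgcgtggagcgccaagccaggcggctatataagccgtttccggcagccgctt
Tob1: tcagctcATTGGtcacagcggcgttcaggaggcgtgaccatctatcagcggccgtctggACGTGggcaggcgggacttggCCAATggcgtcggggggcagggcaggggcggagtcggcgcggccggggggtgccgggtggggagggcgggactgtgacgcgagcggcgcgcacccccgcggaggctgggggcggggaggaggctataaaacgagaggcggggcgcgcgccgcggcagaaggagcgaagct
The Txnip sequence held CCAAT at 137 and 102 bases before the start, GTAAACA at 121 bases, and the CACGAG pair at 85 bases, each counted at the first base of the match. The Tob1 sequence held CCAAT at 243 and 170 bases and ACGTG at 191 bases. Of 32851 RefSeq windows of the same length, the share with CCAAT was 33.8%, with ACGTG 16.6% and with GTAAACA 3.17%, while 1 window held the CACGAG pair, the one before Txnip. The pair was searched for with the exact letters and spacing that it has before Txnip. Its match there was therefore fixed beforehand, and its count is not a background share like the others. The RefSeq window of Pik3ip1 held none of these motifs, and that of Ddit4 held CCAAT at 170 and 137 bases and ACGTG at 187 bases. By GENCODE the Pik3ip1 window (chr11:3330481-3330730, plus strand) lies inside the gene, which starts at 3330401. The Ddit4 window (chr10:59951771-59952020, minus strand) overlaps its gene, which starts at 59951834. Arrdc3 had 3 start sites in RefSeq. The windows of 2 of them overlap and share 1 CCAAT, and the window of the other held ACGTG. None of the 5 genes had CACGTG (6.02% of windows), the cAMP response element TGACGTCA (1.55%) or the NR4A motif AAAGGTCA (1.34%) in these windows. A match is a description of the letters and says nothing about binding in these cells.

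The first comparison asks how the levels of the 5 genes in T-gated cells differed between the libraries. Txnip, Ddit4 and Pik3ip1 were each at close to a 2-fold lower level in the anti-PD1 library, Arrdc3 was at nearly the same level in both, and Tob1 was higher. The 5 genes thus did not differ as 1 group, although all share the name of quiescence genes. Levels are UMIs of the gene per 10000 UMIs of all genes summed over the cells of a class; they are compared between libraries and cell classes for 1 gene at a time, never between genes.

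**Figure D1:**
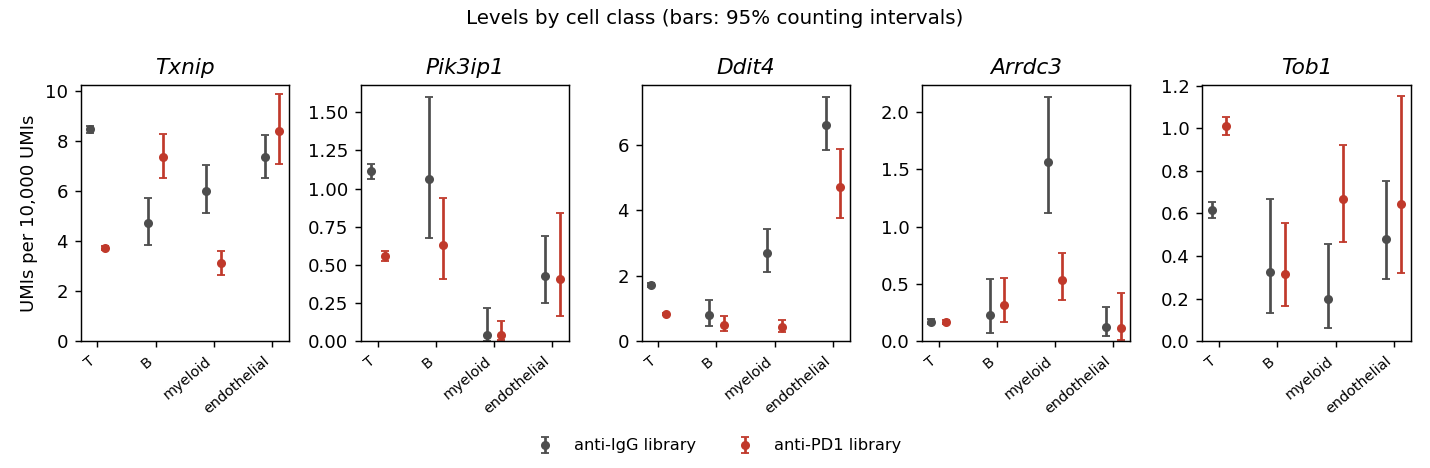
Level of each gene (vertical axis, UMIs per 10,000 UMIs, linear and starting at 0) in T-, B-, myeloid- and endothelial-gated cells of the anti-IgG (grey) and anti-PD1 (red) library; points are levels over all cells of the class and bars are 95% counting intervals. In T-gated cells Txnip was at 8.48 in the anti-IgG and 3.74 in the anti-PD1 library, whereas in B-gated cells it was at 4.73 and 7.38.

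Txnip was at 8.48 UMIs per 10000 (interval 8.35 to 8.62, from 15443 UMIs) in the anti-IgG and at 3.74 (3.66 to 3.83, from 8352 UMIs) in the anti-PD1 T-gated cells. The ratio of the anti-PD1 over the anti-IgG level was 0.441 (0.430 to 0.453). Of the 10840 genes with at least 100 UMIs in these cells, 137 (1.26%) had a lower ratio than Txnip, the thioredoxin-binding arrestin. A Txnip UMI was present in 87.3% of the T-gated cells in the anti-IgG library and in 61.7% in the anti-PD1 library. When each cell was thinned at random to 1000 UMIs (20 shallower anti-IgG cells and 27 such anti-PD1 cells could not be used), the shares were 53.0% and 29.4%. The whole distribution lay lower in the anti-PD1 library: after thinning, 10.8% of anti-IgG cells and 2.99% of anti-PD1 cells held 3 or more Txnip UMIs.

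Txnip is overlapped on the opposite strand by Gm15441, which had 973 and 1013 UMIs in the anti-IgG and anti-PD1 T-gated cells. Pik3ip1 is likewise overlapped by Gm12592 (27 and 16 UMIs) and Arrdc3 by 1700023H06Rik (59 and 24 UMIs). The sources used here do not say whether the counting used the strand, so reads of each gene and its antisense partner may not have been told apart.

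Arrdc3, the other alpha-arrestin of the 5, was at 0.170 UMIs per 10000 in the anti-IgG (309 UMIs) and 0.164 in the anti-PD1 (366 UMIs) T-gated cells. Its ratio was 0.967 (0.829 to 1.13), close to the all-gene median ratio of 0.925, and 58.3% of the tested genes had a lower one. Arrdc3 UMIs were present in 7.17% and 6.43% of the cells. Txnip and Arrdc3 therefore differed in their library ratio although they belong to 1 family.

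Pik3ip1, the PI3 kinase restraint, was at 1.11 UMIs per 10000 in the anti-IgG (2025 UMIs) and 0.556 in the anti-PD1 (1240 UMIs) T-gated cells, a ratio of 0.4998 (0.465 to 0.537). A UMI was present in 36.2% of anti-IgG and 19.6% of anti-PD1 cells, and after thinning in 11.5% and 5.65%. These shares stood above those of the myeloid-gated cells, where Pik3ip1 had 1 and 2 UMIs in all and was present in 2.38% and 1.00% of cells at median depths of 4986 and 5344 UMIs. None of the gated classes is known to lack the other 4 genes, so their shares have no such background beside them.

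Ddit4, the mTORC1 restraint, was at 1.71 UMIs per 10000 in the anti-IgG (3119 UMIs) and 0.822 in the anti-PD1 (1834 UMIs) T-gated cells. Its ratio was 0.480 (0.453 to 0.509), and 186 of the 10840 genes (1.72%) had a lower one. The share of cells with a Ddit4 UMI was 39.9% in the anti-IgG and 21.1% in the anti-PD1 library, and 14.2% and 6.53% after thinning.

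Tob1, the deadenylase adaptor, was at 0.615 UMIs per 10000 in the anti-IgG (1119 UMIs) and 1.01 in the anti-PD1 (2254 UMIs) T-gated cells. It was the 1 gene of the 5 with a higher level in the anti-PD1 library, at a ratio of 1.64 (1.53 to 1.77), and 387 of the 10840 genes (3.57%) had a higher ratio. Tob1 UMIs were present in 22.9% and 32.0% of cells, and in 5.73% and 9.86% after thinning.

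Counted by a fold of at least 1.5 with an interval apart from 1, Txnip, Pik3ip1 and Ddit4 (3 of the 5) were lower in the anti-PD1 T-gated cells, against 9.10% of all tested genes, and Tob1 (1 of the 5) was higher, against 4.98%. Since this contrast chose the 5 genes, nothing is read from these counts. Nr4a1 itself was at 1.06 UMIs per 10000 in the anti-IgG and 5.05 in the anti-PD1 T-gated cells, a ratio of 4.77 (4.54 to 5.01). Its higher level in the anti-PD1 library was not limited to T cells. The ratio was 3.58 (2.56 to 5.13) in B-, 3.91 (2.67 to 5.92) in myeloid- and 5.15 (2.59 to 10.8) in endothelial-gated cells. In fibroblast-gated cells it was 18.8 (6.16 to 93.2), from 3 and 70 UMIs. The cause was not tested. The heat shock genes Hspa1a and Hspa1b, which respond to tissue dissociation, were lower in the anti-PD1 T-gated cells at ratios of 0.540 and 0.507. Without the cells that held a UMI of either, the ratio of Txnip was 0.434, of Pik3ip1 0.514, of Ddit4 0.479 and of Tob1 1.68, all on the same side of 1 as with them. Without the cells that held fibroblast, endothelial or dendritic markers, the ratios were 0.437 for Txnip, 0.496 for Pik3ip1, 0.497 for Ddit4, 0.986 for Arrdc3 and 1.63 for Tob1.

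Among the thinned T-gated cells, those with no UMI of Txnip, Pik3ip1 and Ddit4 were 36.7% in the anti-IgG library and 62.7% in the anti-PD1 library. Cells with UMIs of all 3 were rare, at 1.02% and 0.123%. The 3 genes were only weakly related from cell to cell within a library: Pearson's r of Txnip and Pik3ip1 over thinned cells was 0.09 in the anti-IgG (3716 cells) and 0.03 in the anti-PD1 library (4886 cells). For the other 9 pairs of the 5 genes r lay between -0.02 and 0.04 in both libraries. At 1000 UMIs per cell these counts are sparse, and a weak correlation is no finding.

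The T-gated cells were split by markers into 9 subsets to ask where in the T cells the genes were high and whether the library differences ran through all of them. Cells with UMIs of Mki67 or Top2a were called cycling, those with Foxp3 Treg (regulatory T cells), those with type 17 markers that include Il17a, Trdv4 and Trgv6 type 17, and those with Ncr1 or Klrb1c NK receptor. The remaining cells with CD4 or CD8 transcripts were called naive if they held at least 2 UMIs of naive cell markers that include Lef1 and other if not, and cells without a clear coreceptor were left as the rest. Of the T-gated cells, 8.81% in the anti-IgG library and 14.6% in the anti-PD1 library were in the type 17 subset, and 16.0% and 11.6% were in the CD4 naive subset.

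**Figure D2:**
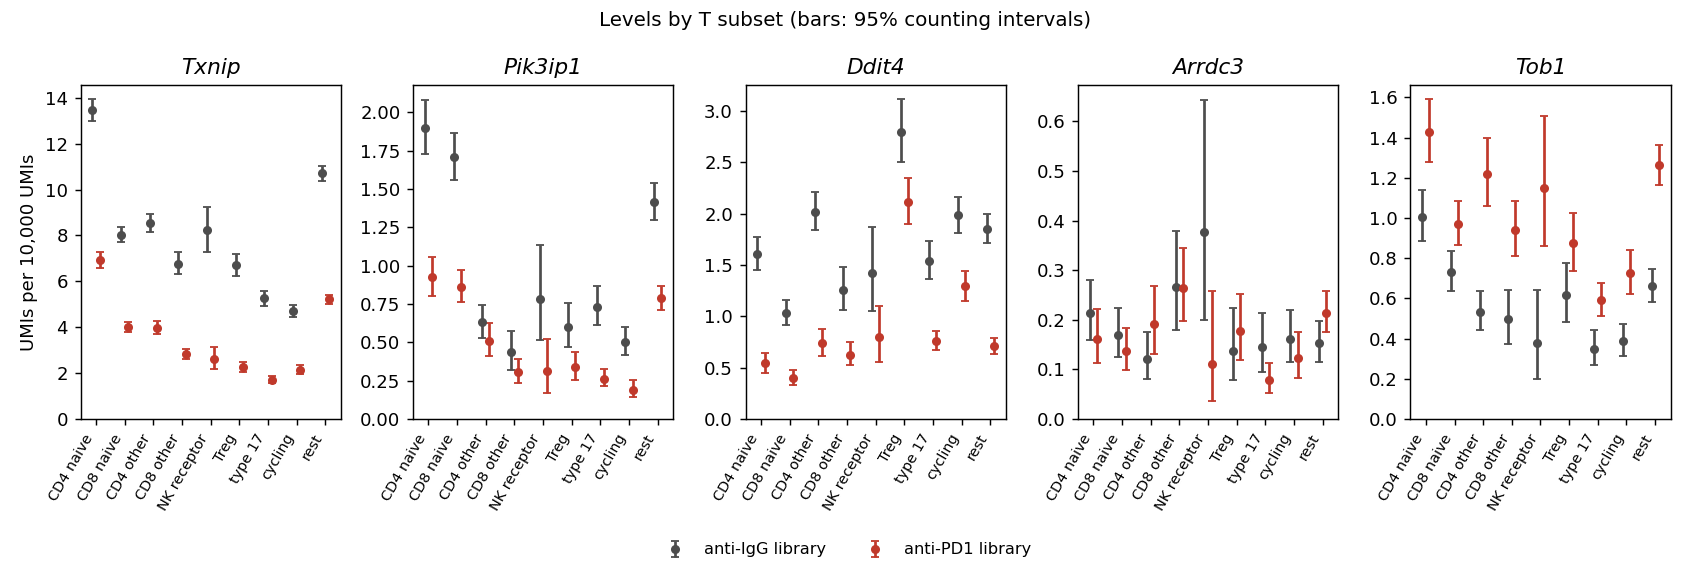
Level of each gene (vertical axes, UMIs per 10,000 UMIs, linear and starting at 0) in 9 marker-defined T subsets (horizontal axes) of the anti-IgG (grey) and anti-PD1 (red) library; points are levels over all cells of the subset and bars are 95% counting intervals. Txnip and Ddit4 were lower and Tob1 higher in the anti-PD1 library in all 9 subsets, and Txnip was highest in CD4 naive cells of both libraries.

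Txnip was at its highest in the CD4 naive subset, at 13.5 UMIs per 10000 in the anti-IgG and 6.92 in the anti-PD1 library. The lowest anti-IgG levels were those of the cycling subset at 4.71 and the type 17 subset at 5.25, whose intervals overlapped. In the anti-PD1 library the type 17 subset was lowest at 1.71, followed by the cycling subset at 2.14. Between these ends several neighbours were not apart beyond counting error: CD4 other, NK receptor and CD8 naive cells of the anti-IgG library lay between 8.03 and 8.54 with overlapping intervals. Every subset was lower in the anti-PD1 library, with ratios from 0.318 (0.254 to 0.395) in the NK receptor subset to 0.514 (0.484 to 0.546) in the CD4 naive subset. The anti-PD1 level of the CD4 naive subset, the highest of that library, stood close to the anti-IgG levels of the CD8 other (6.77) and Treg (6.70) subsets.

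Pik3ip1 was highest in both naive subsets, at 1.90 UMIs per 10000 in CD4 naive and 1.71 in CD8 naive cells of the anti-IgG library and at 0.924 and 0.862 in the anti-PD1 library. The intervals of the CD4 and CD8 naive cells overlapped in each library. The lowest levels were 0.434 in CD8 other cells of the anti-IgG library and 0.191 in cycling cells of the anti-PD1 library. The ratio was below 1 in all 9 subsets, and in 7 of them its interval lay below 1, from 0.359 (0.272 to 0.473) in the type 17 subset. The interval reached 1 in the CD4 other subset (ratio 0.806, 0.611 to 1.06) and the CD8 other subset (0.699, 0.472 to 1.04).

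Ddit4 followed another order and was highest in the Treg subset, at 2.79 UMIs per 10000 in the anti-IgG and 2.11 in the anti-PD1 library. It was lowest in CD8 naive cells, at 1.03 and 0.399. Cycling cells, at 1.98 and 1.29, stood well above the CD8 naive cells in both libraries. All 9 ratios lay below 1 with their intervals, from 0.336 (0.272 to 0.413) in the CD4 naive to 0.756 (0.649 to 0.881) in the Treg subset. The Treg cells, which had the highest Ddit4 levels, thus had the ratio nearest to 1.

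Tob1 was highest in the CD4 naive subset of both libraries, at 1.01 and 1.43 UMIs per 10000, and lowest in the type 17 subset, at 0.347 and 0.590. In both libraries most neighbouring subsets had overlapping intervals. Its ratio was above 1 with its interval in all 9 subsets, from 1.33 (1.11 to 1.59) in CD8 naive cells to 3.06 (1.64 to 6.13) in the NK receptor subset, where it rests on 13 anti-IgG and 52 anti-PD1 UMIs. The CD4 other subset had the ratio next to it, 2.29 (1.82 to 2.89).

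Arrdc3 ranged from 0.121 UMIs per 10000 in the CD4 other to 0.376 in the NK receptor subset of the anti-IgG library, and from 0.0781 in the type 17 to 0.263 in the CD8 other subset of the anti-PD1 library. Each subset's interval overlapped that of its neighbour in the order of levels, but some subsets further along it were apart. In the anti-IgG library CD8 other cells, next after the NK receptor subset, stood narrowly above CD4 other cells (intervals 0.179 to 0.379 and 0.0796 to 0.176). In the anti-PD1 library CD8 other cells stood above type 17 cells (0.197 to 0.345 and 0.0515 to 0.114), though 1 cell held 7 of their 53 UMIs. In 6 of the 9 subsets the interval of the ratio held 1. It lay below 1 in the type 17 subset (0.537, 0.302 to 0.958) and in the NK receptor subset (13 and 5 UMIs), and above 1 in the rest (1.40, 1.01 to 1.97).

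Since the subsets made up different shares of the 2 libraries, the ratios were also computed with the 9 subsets weighted to the same mix. On that footing Txnip had a ratio of 0.465, Pik3ip1 of 0.530, Ddit4 of 0.451, Arrdc3 of 1.01 and Tob1 of 1.72. Of the 5 ratios that of Arrdc3 alone crossed 1 by this weighting, and its interval held 1 without it too.

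**Figure D3:**
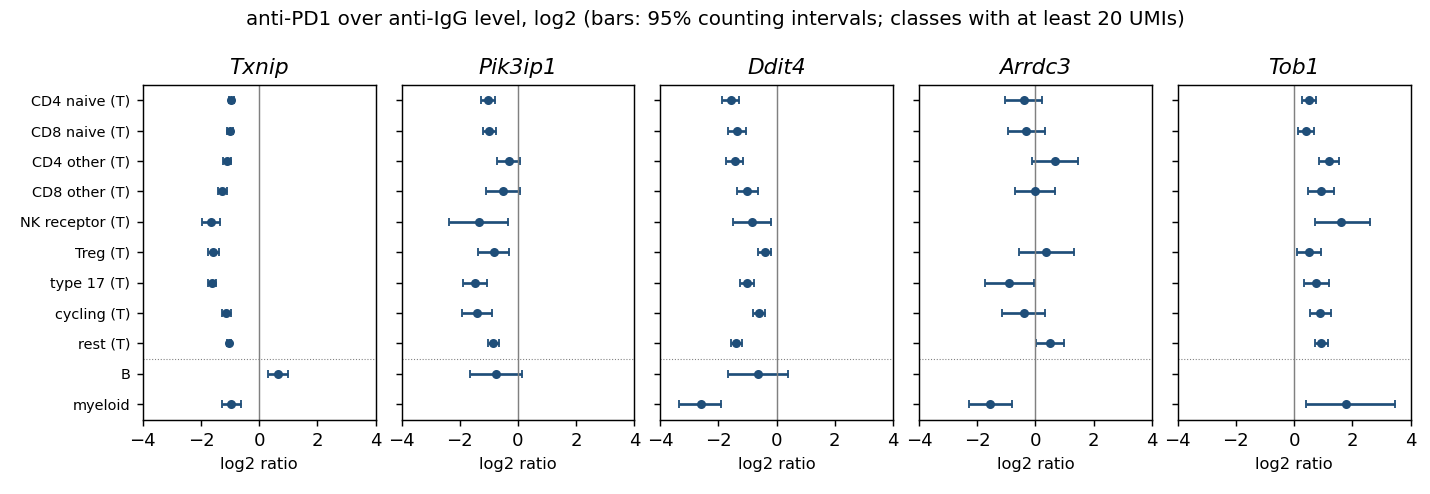
Log2 of the anti-PD1 over the anti-IgG level (horizontal axes) of each gene in the 9 T subsets and, under the dotted line, in B- and myeloid-gated cells; points are ratios, bars are 95% counting intervals, the grey line marks equal levels, and classes with fewer than 20 UMIs of the gene are not drawn. Txnip lay left of the line in the T subsets and in myeloid-gated cells and right of it in B-gated cells, at log2 0.64.

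The next comparison describes the same genes in cells that are not T cells. The UMIs of these cells did not enter the T cell levels. The genes were, however, chosen by their levels across the cell classes and between the libraries. The ratios in these cells are therefore no separate check of the T cell differences. These cells also shared the library, and thus any difference in preparation, with the T cells. In the B-gated cells Cd79a was present in 100% of anti-IgG and 99.2% of anti-PD1 cells, and no Cd3 UMI was allowed. In the myeloid-gated cells Lyz2 was present in 100% of both and Csf1r in 92.9% and 81.0%.

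In B-gated cells Txnip was at 4.73 UMIs per 10000 in the anti-IgG (102 UMIs in 56 cells) and 7.38 in the anti-PD1 library (280 UMIs in 133 cells). It was thus higher in the anti-PD1 library, the reverse of the T-gated cells, at a ratio of 1.56 (1.24 to 1.98). The share of B-gated cells with a Txnip UMI was 76.8% and 75.2%, and after thinning, with overlapping intervals, 35.7% (exact interval 23.4% to 49.6%) and 48.5% (39.7% to 57.3%). Without the 5% of cells with the most UMIs in each library the ratio was 1.19 and its interval held 1 (0.939 to 1.51). The level of all genes also leaned upward here, with a median ratio of 1.18 over the 714 genes with at least 100 UMIs. Of the 5 genes Txnip alone reached 100 UMIs, and by the 1.5-fold rule it was higher, as were 16.8% of those 714 genes, while 5.18% were lower.

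Pik3ip1 was at 1.07 UMIs per 10000 in anti-IgG and 0.633 in anti-PD1 B-gated cells (23 and 24 UMIs), with a ratio of 0.593 (0.321 to 1.10). Ddit4 was at 0.788 and 0.501 (17 and 19 UMIs), with a ratio of 0.635 (0.313 to 1.30). Both intervals held 1, so a difference was not detectable at this depth in all B-gated cells. Without the 5% of cells with the most UMIs the Pik3ip1 ratio was 0.474 with an interval below 1 (0.253 to 0.896). Arrdc3 (5 and 12 UMIs) and Tob1 (7 and 12 UMIs) were too sparse in B-gated cells for a ratio.

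In myeloid-gated cells Txnip was at 6.03 UMIs per 10000 in the anti-IgG (154 UMIs) and 3.11 in the anti-PD1 library (168 UMIs), a ratio of 0.516 (0.412 to 0.646). The share of cells with a Txnip UMI was 81.0% and 48.0%. By the 1.5-fold rule Txnip was lower, as were 10.8% of the 1103 genes with at least 100 UMIs, while 10.6% were higher, and 22 of those genes (1.99%) had a lower ratio than Txnip.

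Ddit4 was at 2.70 and 0.444 UMIs per 10000 in the myeloid-gated cells (69 and 24 UMIs), a ratio of 0.165 (0.0988 to 0.265). Arrdc3, with a ratio near 1 in the T-gated cells, was lower in the anti-PD1 myeloid-gated cells, at 1.57 and 0.537 (40 and 29 UMIs) and a ratio of 0.343 (0.205 to 0.567). Tob1 was higher, at 0.196 and 0.666 (5 and 36 UMIs) and a ratio of 3.41 (1.33 to 11.1). The myeloid gate drew a population that was itself not the same in both libraries, with Csf1r at 14.05 and 11.01 and C1qa at 49.6 and 56.9 UMIs per 10000. The part of that in these ratios was not tested.

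Endothelial-gated cells (46 anti-IgG and 33 anti-PD1 cells) had Txnip at 7.36 and 8.40 UMIs per 10000, with an interval of the ratio that held 1 (1.14, 0.928 to 1.40). Their Ddit4 was at 6.63 and 4.73, a ratio of 0.713 (0.549 to 0.918). It came from 262 and 81 UMIs, with 34 in 1 anti-IgG cell, and the thinned shares of cells with Ddit4 were 48.7% and 46.7%. In the fibroblast-gated cells (17 and 18 cells) Txnip had a ratio of 0.440 (0.300 to 0.638) from 84 and 46 UMIs, with 21 in 1 anti-IgG cell. Ddit4 had a ratio of 0.388 (0.238 to 0.619) there, from 58 and 28 UMIs. The shares of fibroblast-gated cells with a UMI were 64.7% and 66.7% for Txnip and 82.4% and 55.6% for Ddit4. A lower Ddit4 level in the anti-PD1 library was therefore measured in T-, myeloid-, endothelial- and fibroblast-gated cells, the last 2 from few cells. Gates for plasmacytoid dendritic (9 and 16 cells), conventional dendritic (5 and 5) and NK cells (4 and 12) were smaller still. Txnip had ratios there of 0.491 (0.248 to 0.953), 0.264 (0.0638 to 0.830) and 0.0314 (13 and 3 UMIs). Ddit4 was lower in the dendritic gates (22 and 5, and 13 and 1 UMIs) but had 0 and 12 UMIs in NK-gated cells. The direction of Txnip was not the same in all classes, and the difference between the classes was not tested.

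The last comparison asks how the 5 genes relate to Nr4a1 within T-gated cells of 1 library. Deep cells show more UMIs of any gene, so the cells were thinned to 1000 UMIs and split into those with and without a Nr4a1 UMI, 310 and 3406 cells in the anti-IgG and 1509 and 3377 cells in the anti-PD1 library. Of the cells with a UMI, 235 and 971 held exactly 1, so that many lie at the edge of the split. Over all T-gated cells, whose subsets are mixed here, Txnip was lower in cells with Nr4a1 in both libraries. The values of the other genes, Pik3ip1 and Tob1 above all, depended on the depth and the random draw of the thinning.

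Txnip was at 7.81 UMIs per 10000 in anti-IgG cells with a Nr4a1 UMI and at 9.87 in those without, a ratio of 0.791 (0.691 to 0.901). In the anti-PD1 library it was at 3.56 and 4.61, a ratio of 0.772 (0.698 to 0.852). The median ratio of all genes with enough UMIs was 1.01 in the anti-IgG (5113 genes) and 1.03 in the anti-PD1 library (5841 genes). Of these genes, 17.7% in the anti-IgG and 5.60% in the anti-PD1 library had a lower ratio than Txnip. Over 20 further random thinnings the Txnip ratio was below 1 in all 20 in both libraries, between 0.720 and 0.925 in the anti-IgG and between 0.683 and 0.804 in the anti-PD1 library. The interval held 1 under the 1 other thinning listed among the alternatives in the anti-IgG library (0.906, 0.793 to 1.03), and in the CD4 naive subset taken alone in both libraries (0.821, 0.623 to 1.06, and 0.812, 0.632 to 1.03). From cell to cell the relation was weak, with Pearson's r of -0.05 and -0.06. Within the T subsets that held at least 20 Txnip UMIs, the ratio was below 1 in 7 of 9 subsets in the anti-IgG library and in 7 of 8 in the anti-PD1 library, and its interval lay below 1 in 3 and 2 of them. The ratio was above 1 in CD8 naive cells of both libraries (1.33, 0.912 to 1.89, and 1.22, 0.888 to 1.66). It was also above 1 in anti-IgG CD8 other cells (1.77, 0.895 to 3.19). Nr4a1 itself was at 2.83 in Treg, 2.02 in type 17, 0.881 in CD4 naive and 0.502 UMIs per 10000 in CD8 naive anti-IgG cells. In the anti-PD1 library these subsets were at 7.52, 6.68, 3.16 and 2.11. How far this enters the ratios over all T-gated cells was not tested.

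For Pik3ip1 the ratio of cells with over cells without Nr4a1 was 1.11 (0.792 to 1.51) in the anti-IgG and 0.811 (0.619 to 1.05) in the anti-PD1 library, and both intervals held 1. That anti-PD1 value stood above all 20 further draws, which lay between 0.432 and 0.769. The anti-PD1 interval lay below 1 under the 1 other thinning among the alternatives (0.756, 0.581 to 0.974), in cells thinned to 2000 UMIs (0.659, 0.551 to 0.786), in unthinned cells of 3000 to 6000 UMIs (0.563, 0.480 to 0.661) and with a T gate of 4 Cd3 UMIs (0.706, 0.523 to 0.941). In the anti-IgG library Pik3ip1 was below 1 with its interval at 2000 UMIs (0.803, 0.643 to 0.994), and its 20 draws lay on both sides of 1, between 0.622 and 1.31.

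For Ddit4 it was 1.04 (0.778 to 1.37) and 1.34 (1.08 to 1.66), above 1 with its interval in the anti-PD1 library. There it held 1 in cells with at least 1000 genes (1.23, 0.976 to 1.54) and in CD4 naive cells (1.25, 0.556 to 2.61), and over the 20 draws it lay between 1.03 and 1.55. For Tob1, the deadenylase adaptor, the ratio was 1.20 (0.737 to 1.87) and 1.20 (0.998 to 1.44) in the reported thinning. It was above 1 with its interval in both libraries at 2000 UMIs (1.51, 1.19 to 1.90, and 1.24, 1.09 to 1.40) and in unthinned cells of 3000 to 6000 UMIs (1.56, 1.29 to 1.87, and 1.22, 1.08 to 1.38). Of the 20 draws, 1 was below 1 in the anti-IgG and 0 in the anti-PD1 library, with median ratios of 1.43 and 1.20. Arrdc3 had 3 UMIs in the anti-IgG cells with Nr4a1, and its ratios of 0.464 (0.0935 to 1.41) and 0.701 (0.408 to 1.16) held 1 in their intervals, while at 2000 UMIs the anti-PD1 ratio was 1.53 (1.09 to 2.17).

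By the 1.5-fold rule 0 of the 5 genes differed between cells with and without Nr4a1 in either library in the reported thinning, and this count depended on the thinning. Of all genes, 2.01% were lower and 4.01% higher in the anti-IgG cells with Nr4a1, and 1.11% were lower and 3.27% higher in the anti-PD1 cells. At 2000 UMIs Tob1 passed upward in the anti-IgG library, where 3.97% of genes were higher and 1.91% lower, and Pik3ip1 passed downward and Arrdc3 upward in the anti-PD1 library, where 0.715% were lower and 3.22% higher. In unthinned cells of 3000 to 6000 UMIs Tob1 passed upward in the anti-IgG library (3.30% of genes higher, 1.73% lower), and Txnip and Pik3ip1 passed downward in the anti-PD1 library (1.19% lower, 6.78% higher). Under the 1 other draw Tob1 passed upward in the anti-IgG library (1.52, 1.01 to 2.21), where 4.77% of genes were higher and 2.11% lower, and 0 of the 5 passed in the anti-PD1 library, where 3.29% were higher and 1.18% lower.

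**Figure D4:**
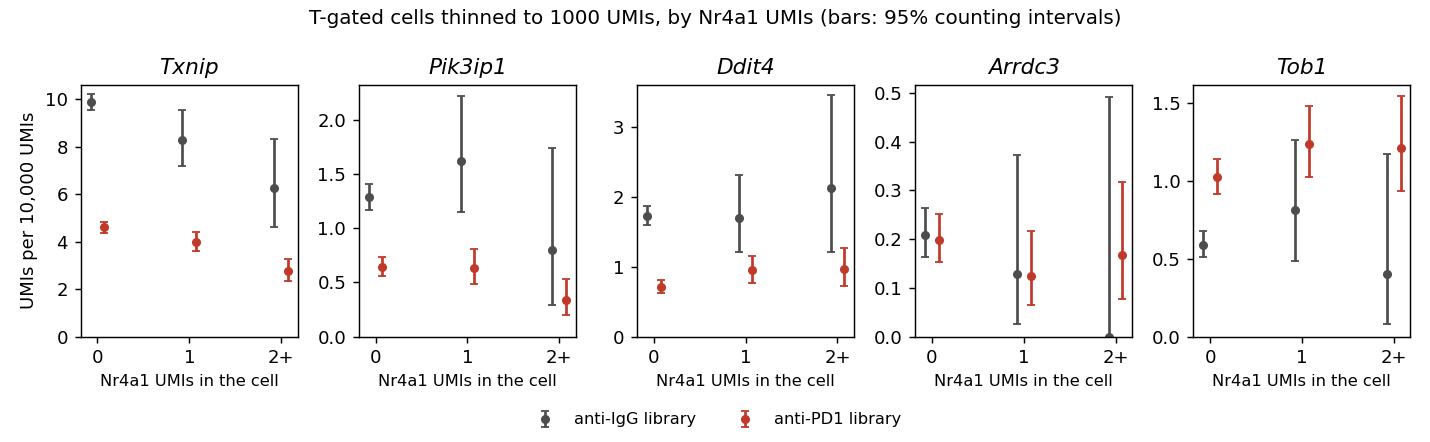
Level of each gene (vertical axes, UMIs per 10,000 UMIs, linear and starting at 0) in T-gated cells thinned to 1000 UMIs, by the number of Nr4a1 UMIs in the cell (0, 1, or 2 and more), in the anti-IgG (grey) and anti-PD1 (red) library; bars are 95% counting intervals. At 0, 1 and 2 or more Nr4a1 UMIs, Txnip was at 9.87, 8.30 and 6.27 in the anti-IgG and at 4.61, 3.996 and 2.77 in the anti-PD1 library.

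The library difference of Txnip was present also among cells with no Nr4a1 UMI, at a ratio close to the 0.442 of all thinned cells. In cells with 0, 1, and 2 or more Nr4a1 UMIs the ratio of anti-PD1 over anti-IgG was 0.467 (0.440 to 0.496), 0.482 (0.404 to 0.575) and 0.442 (0.316 to 0.627). For Pik3ip1 the ratios in the 3 classes were 0.503 (0.426 to 0.593), 0.389 (0.255 to 0.599) and 0.418 (0.159 to 1.29). For Ddit4 they were 0.410 (0.352 to 0.478), 0.557 (0.380 to 0.828) and 0.453 (0.255 to 0.850). Tob1 was higher in each class, at 1.73 (1.45 to 2.07), 1.53 (0.937 to 2.63) and 3.02 (0.989 to 15.0), the last 2 with intervals that held 1. At 1000 UMIs a cell listed at 0 can still express Nr4a1, so these classes are ranges of a count and not states.

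Other genes of the same pathways were looked up in lists and counted without the 5 genes, among those with at least 50 UMIs in T-gated cells. Of the 12172 genes with that many, 10.9% were lower and 5.24% higher in the anti-PD1 library by the 1.5-fold rule, and the median log2 ratio was -0.12. The other alpha-arrestins did not share the Txnip difference: 0 of the 3 measured genes passed in either direction, with ratios of 1.05 for Arrdc1, 1.05 for Arrdc2 and 0.906 for Arrdc4. Of 7 genes of the thioredoxin system and the Mondo factors, 0 passed, with Mlx, the partner of the Mondo factors, at 0.771, Mlxip at 0.949, Prdx1 at 1.10 and Txnrd1 at 1.12.

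In the BTG/TOB family and the CCR4-NOT complex, 2 of 16 measured genes passed upward and 0 downward. These were Tob2, the closest relative of Tob1, at a ratio of 2.64 (2.47 to 2.82), and Btg3 at 2.22 (1.97 to 2.51). The lowest ratios were those of the complex members Cnot3 (0.784) and Cnot8 (0.786), and the list had a median log2 ratio of -0.08.

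Among 12 genes that restrain or carry the mTORC1 signal, 0 passed downward and 2 upward: Sesn2, a restraint that answers to leucine, at 2.04 (1.66 to 2.52), and Rheb, the GTPase that switches mTORC1 on, at 1.51 (1.42 to 1.61). Sesn1, a relative of Sesn2, had the lowest ratio of the list at 0.732. Among 13 PI3 kinase genes 0 passed, and the ratios ran from 0.674 for the lipid phosphatase Inpp4b to 1.13 for Akt2, with Inpp5d at 1.12.

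Of 19 genes of the FOXO and KLF2 quiescence list, 1 passed downward and 1 upward, and the median log2 ratio was -0.21. The quiescence gene Slfn2 was at a ratio of 0.570 (0.551 to 0.590), and the repressor Bcl6 at 2.64 (2.22 to 3.15). Foxo3 was at 1.36.

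Genes that share known inducers with Ddit4 and Txnip mostly did not pass. In the glucocorticoid response list 0 of 11 passed downward and 3 upward, with Fkbp5 at 0.667, Tsc22d3 at 0.860, Per1 at 2.81 and Cebpb at 2.42; the other gene that passed was Mt1, at 1.58. In the hypoxia list 0 of 12 passed downward and 1 upward, with Pdk1 at 0.773, Egln1 at 0.888, Slc2a1 at 1.36 and Vegfa at 3.75 (20 and 92 UMIs). In the ATF4 list of the amino acid response 0 of 9 passed downward and 1 upward, with Psat1 at 0.759, Phgdh at 0.882, Asns at 1.48 and Slc7a11 at 4.90 (8 and 48 UMIs). The genes of these 3 lists that passed were higher in the anti-PD1 library, and some had few UMIs. Over all genes 10.9% were lower and 5.24% higher, so short lists hold few such genes in any case. The glucocorticoid list still leaned upward, with a median log2 ratio of 0.29 against -0.12 over all genes. Of its 11 genes, 8 had an interval above 1 and 2 an interval below 1. The medians of the hypoxia and ATF4 lists were 0.02 and 0.09. Whether these inducers have a part in the Ddit4 or Txnip difference was not tested.

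In the list of glucose uptake and glycolysis, processes that Txnip restrains, 0 of 13 genes passed downward and 1 upward. That gene was Hk2, which encodes hexokinase 2, at 0.0269 and 0.102 UMIs per 10000 and a ratio of 3.78 (2.77 to 5.26) from 49 and 227 UMIs. Eno1 was at 0.750, Gapdh at 0.851 and the glucose transporter gene Slc2a1 at 1.36. In the activation list, 3 of 16 passed downward and 6 upward, with Nr4a3 at 5.36, Nr4a2 at 4.85, Jun at 0.560 and Fos at 0.586, and with Fosb, at 0.660, the remaining gene that passed downward. In the heat shock list, 2 of 9 passed downward, Hspa1a and Hspa1b, and 0 upward, with Hsp90aa1 at 1.22 and Dnaja1 at 1.20.

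Genes with the most similar pattern were looked up over 24 points, the 9 T subsets and the B-, myeloid- and endothelial-gated cells of each library, among 8453 genes. The measure was Pearson's r of log2(UMIs per 10000 + 0.1), and the points share their library and its depth. For Txnip these were Prpf39 (r = 0.75), Zmym4 (0.74) and Stard5 (0.74), and for Pik3ip1 they were Gm45552 (0.87), Fbxl12 (0.86) and Rps21 (0.85). For Ddit4 they were Ino80d (0.90), Gtf2e2 (0.87) and Pcm1 (0.87), for Arrdc3 the myeloid genes Tlr7 (0.90), Ms4a6c (0.86) and Ms4a4a (0.86), and for Tob1 Fbrsl1 (0.82), Frat2 (0.82) and Rnf19a (0.81). Among the 5 genes themselves Txnip and Pik3ip1 had r = 0.59 and Txnip and Ddit4 r = 0.38 over these points, while Txnip and Nr4a1 had r = -0.73 and Tob1 and Nr4a1 r = 0.41. The points come from both libraries, so these values also hold the library differences given above and are no separate finding.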

How the data were processed

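For every barcode the authors deposited the unnormalized UMI count of each gene, written by Cell Ranger 7.1.0 per the file headers. Per the submitters' processing notes the build was mm10 and the tools were Seurat 4.4.0 and Cell Ranger 7.2.0, and the annotation and the use of strand in counting are not given in the sources used here. The 5 genes, the gates and the lists were chosen with earlier results of these data known.

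Cells were kept from 300 genes and 500 UMIs upward if mitochondrial UMIs were at most 10%, and were assigned to classes by marker gates, in Python 3.11.15 with numpy 2.4.6, scipy 1.17.1 and pandas 2.3.3. Cells that passed more than 1 gate (67 anti-IgG and 80 anti-PD1 cells) were left out. No doublet caller was run. The T gate limits B cell and myeloid markers but not those of fibroblasts, endothelial or dendritic cells, so mixed cells can pass it; leaving out T-gated cells with such markers and leaving out the 5% of cells with the most UMIs were alternatives. Sums of UMIs were taken over each class, from 18206103 and 22307885 UMIs in T-gated cells to 215735 and 379417 in B-gated cells. Ratios carry exact conditional binomial intervals, levels exact Poisson and shares exact Clopper-Pearson intervals, at 95%; they cover counting error only. With 1 library per group no test was made. A gene was counted as higher or lower at a fold of at least 1.5 with an interval apart from 1.

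Named genes were the 5 genes and Nr4a1, the 2 highest and 2 lowest ratios of each list among genes with at least 50 UMIs, and the 3 genes most like each of the 5. Mt1 and Fosb were named after their values were seen, to complete their counts. Some markers of the gates and 1 gene that the rule names are not reported here. The minimum of 20 UMIs for a ratio, the sequence motifs and 5 alternatives (without shared barcodes, without T-gated cells that held fibroblast, endothelial or dendritic markers, without the cell richest in the gene in B- and in myeloid-gated cells, and 20 thinning draws) were chosen after seeing the data. Gene positions and overlaps came from GENCODE on GRCm38. The scripts were tested on simulated data.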

Additional observations from a re-analysis of the deposited data

Results flagged for a closer look

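Txnip was lower in the anti-PD1 library in T-gated cells, at a ratio of 0.441, and in myeloid-gated cells, at 0.516, but higher in B-gated cells, at 1.56. It drew attention because the directions were opposite between cell classes of the same libraries. The difference between the classes was not tested, since each antibody had 1 library, and the B-gated ratio was 1.19 without the 5% of cells with the most UMIs.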

How the results depend on the processing

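Across 22 ratios and 189 values under alternatives, 174 stayed within the interval of the reported ratio, 15 moved outside it, and 0 reversed a direction whose interval was apart from 1. In T-gated cells Txnip had a ratio of 0.465 and Ddit4 of 0.451 with the same mix of subsets, and thinning gave 0.452 for Ddit4 and 1.81 for Tob1. In B-gated cells Txnip was at 1.19 without the cells with the most UMIs. In the relation to Nr4a1 in the anti-IgG library, Txnip was at 0.906 in another draw and 0.908 in unthinned cells of 3000 to 6000 UMIs, and CD4 naive cells alone gave 1.58 for Pik3ip1, 0.607 for Ddit4 and 0.607 for Tob1. In the anti-PD1 library, the same unthinned cells, a change of both thinning and depth range, gave 0.652 for Txnip and 0.563 for Pik3ip1. There thinning to 2000 UMIs gave 1.53 for Arrdc3, and CD4 naive cells alone gave 1.09 for Pik3ip1. The CD4 naive value of Arrdc3, 2.94, had an interval of 0.0375 to 231 and is too sparse for a ratio. The cause was not tested for any of these. Over all its alternatives the T-gated ratio lay between 0.434 and 0.465 for Txnip, between 0.470 and 0.530 for Pik3ip1, between 0.451 and 0.497 for Ddit4, between 0.894 and 1.05 for Arrdc3 and between 1.60 and 1.81 for Tob1. Thinned myeloid-gated cells gave no ratio for Tob1, and CD4 naive anti-IgG cells none for Arrdc3 and Nr4a1, because a side held 0 UMIs. No paired analysis was possible because each antibody has 1 library, and for the same reason no replicate could be left out. Batch, animal and antibody cannot be told apart.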
